A study of Arabidopsis thaliana with 20 samples.

Results

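The genes described here are the 3 cytokinin receptor genes *AHK2*, *AHK3* and *AHK4* and the 6 histidine phosphotransfer genes *AHP1* to *AHP6* of *Arabidopsis thaliana*, chosen by name and making up 9 of the 27562 loci in the transcript tables. RNA was sequenced from shoot apices of *plt3 plt7* double mutants and of Col-0, the wild type, at 2 stages: the vegetative shoot apical meristem (SAM) of seedlings at 7 days post germination (dpg), grown on nylon mesh over agar, and the inflorescence meristem (IM) of soil-grown plants at 31 to 33 dpg. The *plt3 plt7* alleles were made with CRISPR in the Col-0 background and affect *PLT3* and *PLT7*, which encode AP2-type transcription factors of the PLETHORA family. Each of the 4 groups, *plt3 plt7* SAM, Col-0 SAM, *plt3 plt7* IM and Col-0 IM, had 5 libraries, and each library pooled roughly 50 dissected meristems, cleared of cotyledons, first leaves and most of the hypocotyl in SAM and of flowers and older primordia in IM. SAM and IM samples therefore differed in age, substrate, light and harvest as well as in stage, and these cannot be told apart.

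Cytokinin is sensed by membrane-bound sensor histidine kinases. On binding the hormone, the receptor phosphorylates itself, and the phosphoryl group is passed on to a conserved histidine of an AHP protein, which moves between cytosol and nucleus and hands it to the type-B response regulators (transcription factors) or the type-A response regulators (feedback inhibitors). AHP1 to AHP5 carry this histidine, whereas AHP6 lacks it and inhibits the relay as a pseudo-phosphotransfer protein. At the shoot apex, cytokinin promotes stem cell identity, and *AHP6* is known from Arabidopsis inflorescences as an inhibitor of cytokinin signalling in young primordia. In assembly TAIR10.1 the receptor genes are AT5G35750 (*AHK2*, chr5:13911283-13916805, minus strand), AT1G27320 (*AHK3*, chr1:9486889-9492632, plus strand) and AT2G01830 (*AHK4*, chr2:362983-369707, minus strand). The phosphotransfer genes are AT3G21510 (*AHP1*, chr3:7577712-7579789), AT3G29350 (*AHP2*, chr3:11264126-11265562), AT5G39340 (*AHP3*, chr5:15748731-15750891), AT3G16360 (*AHP4*, chr3:5554197-5555789), AT1G03430 (*AHP5*, chr1:847793-849621) and AT1G80100 (*AHP6*, chr1:30133718-30134937).

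The substitution that sets AHP6 apart can be read from the coding strand around that codon. Each sequence below is 30 bases of coding sequence, 5′ to 3′, from the RefSeq annotation of assembly TAIR10.1, with the codon of the phosphorylated histidine, or its counterpart in *AHP6*, in capitals. They are shown because this codon separates the inhibitor *AHP6* from the 5 genes it is set against.
AHP1: gatccccatgttCATcaactcaaaggtagc
AHP2: ggtgctagtgtgCATcaattgaagggtagt
AHP3: ggttctagtgttCATcaactcaaaggtagt
AHP4: gatagttacatgCATcagtttaagggaagc
AHP5: gattcaggtgttCATcaactcaagggtagt
AHP6: ggattacacctgAATcagctggtgggaagc
The windows lie within 1 coding exon each, at chr3:7578969-7578998 (minus strand, *AHP1*), chr3:11264849-11264878 (minus strand, *AHP2*), chr5:15749742-15749771 (plus strand, *AHP3*), chr3:5554746-5554775 (plus strand, *AHP4*), chr1:848676-848705 (plus strand, *AHP5*) and chr1:30134164-30134193 (plus strand, *AHP6*). Counted from 1 at the 5′ end of the window, *AHP6* differed from each of the other 5 genes by C13A, the first base of the capital codon, which makes it an asparagine codon. In total *AHP6* differed at 12 of 30 bases from *AHP4* and at 15 or 16 from *AHP1*, *AHP2*, *AHP3* and *AHP5*. Over aligned coding bases, *AHP2* and *AHP3* were the closest pair, with 85.5% identity, followed by *AHP3* and *AHP5* with 77.1%. Of all 31-base words in the transcripts, 2.33% in *AHP2* and 1.14% in *AHP3* also occurred in another gene, mostly the other of this pair, and none did in the other 7 members. *AHP4* overlaps a long non-coding RNA gene on the opposite strand by 212 bases, counted over the whole gene. Whether that stretch lies in exons was not checked, and no strand setting is given for the quantification. Reads of the 2 genes from that stretch, if any, may therefore not be told apart.

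Libraries held estimated counts totalling 24.8 M to 114.9 M (M, 1e6), the deepest being *plt3 plt7* IM replicate 3. Mean fragment length was 346 to 407 nt in *plt3 plt7* SAM and 413 to 432 nt in Col-0 SAM, with 287 to 438 nt in *plt3 plt7* IM and 351 to 430 nt in Col-0 IM. *PLT3* was at 3.48 to 4.41 TPM (a transcript level scaled to length and depth) in *plt3 plt7* SAM and at 5.68 to 9.54 in Col-0 SAM, with 11.3 to 13.7 in *plt3 plt7* IM and 18.5 to 24.7 in Col-0 IM, with no overlap in either tissue. *PLT7* ranges overlapped in both tissues, and it did not pass the test (adjusted p = 0.413 in SAM and 0.495 in IM, DESeq2), so that the level of an edited transcript checks the genotype only in part. The meristem gene *STM* was present in all groups, whereas the stem cell organiser gene *WUS* averaged 0.118 TPM in *plt3 plt7* SAM and 0.0908 in Col-0 SAM. By mean TPM, *STM*, *WUS* and the meristem marker *KNAT1* were higher in IM in each genotype. The meristem markers *CLV1* and *CLV3* were higher in SAM in each genotype. *CLV1* averaged 16.3 TPM in *plt3 plt7* SAM and 19.9 in Col-0 SAM, against 11.7 and 13.1 in IM. The meristem markers thus did not all move 1 way between tissues. The summed TPM of 6 photosynthetic leaf genes ranged from 1870 to 2301 over the IM libraries, against 8961 to 16117 over the SAM libraries.

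By mean TPM, *AHP2* and *AHP3* were the most abundant of the 9 genes, and *AHP5* and the receptors lay in a middle range. *AHP1*, *AHP4* and *AHP6* fell below that range in at least 1 tissue and differed between tissues, as did *AHK4* and *AHP2*. Few of the 9 genes differed between genotypes. A gene was called when its adjusted p was below 0.1 and its log2 fold change was beyond 0.32 either way, a 25% increase (DESeq2 Wald test with harvest group as covariate between genotypes, p-values adjusted over all genes tested). In SAM, 1 of 9 members was called in *plt3 plt7* against Col-0, where 0.453% of all 19185 genes tested were called, and no member had TPM ranges that did not overlap between genotypes, which 0.709% of genes had. In IM, 1 of 8 tested members was called, and it was lower in *plt3 plt7*. Of all 19432 genes, 1.53% were called and 1.07% were called lower, and TPM did not overlap for that 1 member and for 2.03% of genes. The median log2 fold change of the members was −0.08 in SAM and −0.09 in IM, beside −0.0052 and −0.0048 over all genes. With edgeR's quasi-likelihood test no member was called in either tissue, with 2 in SAM and 1 in IM at an unadjusted p under 0.05. Over all genes, 1510 of 19185 in SAM and 2058 of 19432 in IM were under that limit with edgeR. Between tissues, leaving out *AHP4*, whose counts passed the filter through the SAM libraries alone, 4 of 8 members were called within each genotype, where 57.8% of all genes in *plt3 plt7* and 57.1% in Col-0 were called. The share of members called in the IM to SAM comparison was thus near the background.

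**Figure D1:**
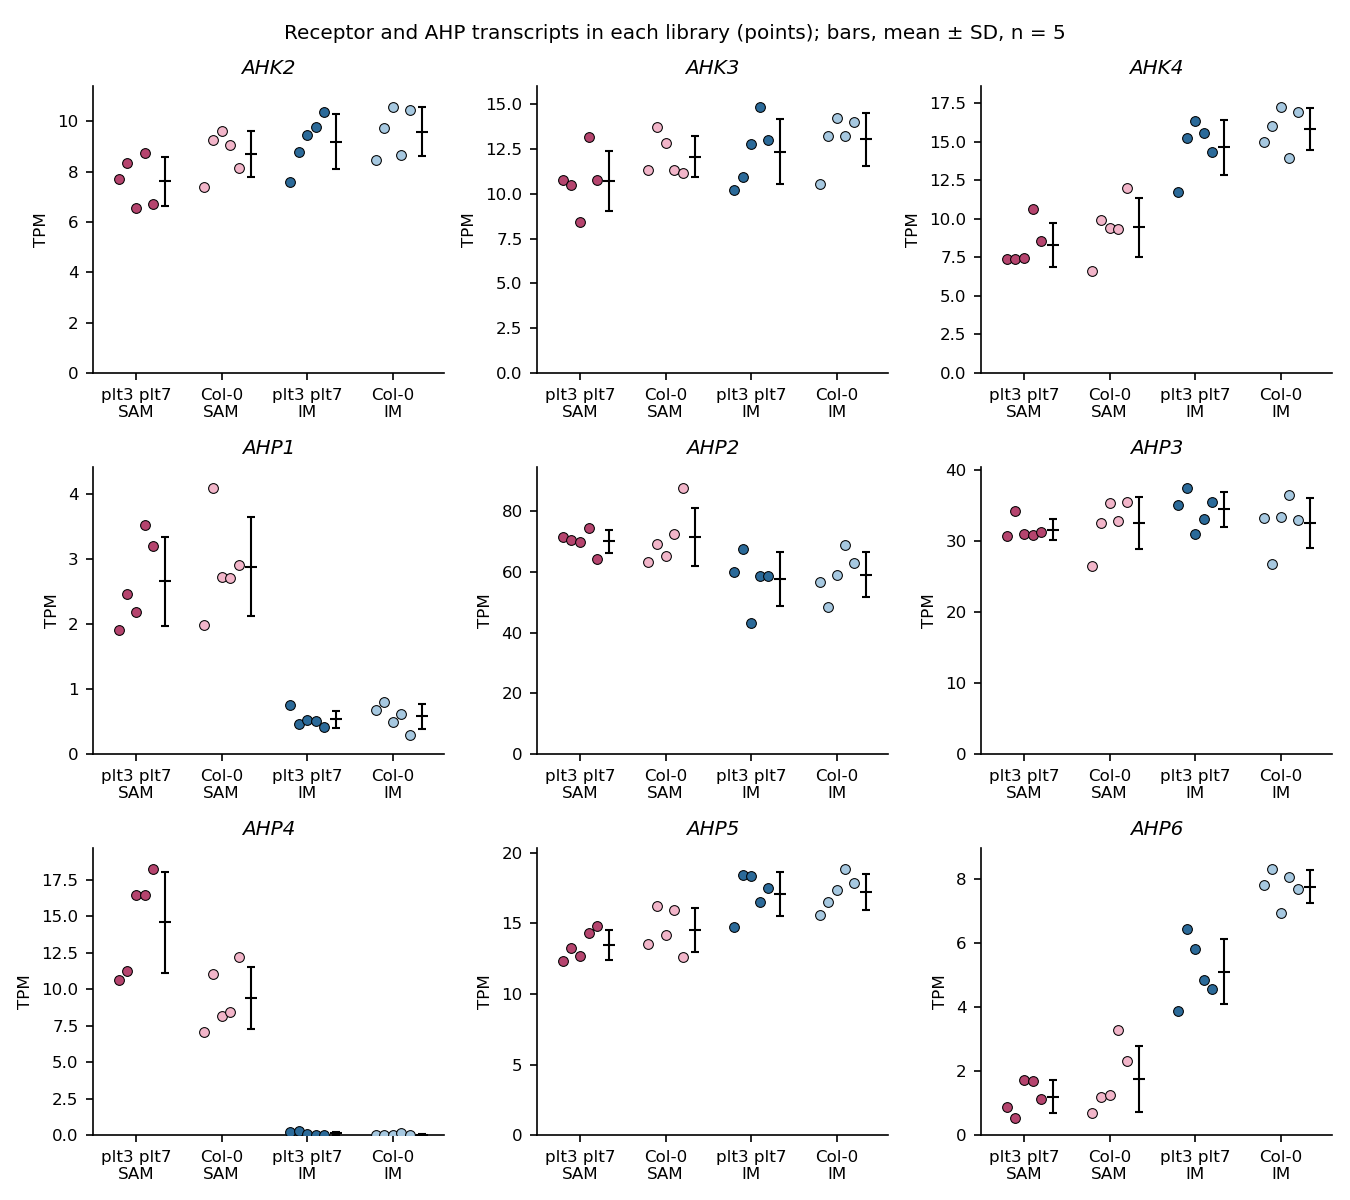
Transcript level in TPM (y axis, linear from 0) of each receptor and *AHP* gene in the 20 libraries; points are libraries in replicate order and bars give mean ± SD (n = 5 per group). *AHP4* is near 0 in both IM groups, *AHP1* is low there, *AHP6* and *AHK4* are high there, and the genotypes overlap in every panel except *AHP6* in IM.

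*AHK3*, the receptor with the highest mean in SAM, averaged 10.7 ± 1.67 TPM in *plt3 plt7* SAM and 12.1 ± 1.15 TPM in Col-0 SAM (SD, n = 5). *AHK4*, also known as *CRE1* or *WOL* and required for the formation of root vascular tissue, averaged 8.29 ± 1.41 TPM in *plt3 plt7* SAM and 9.45 ± 1.92 TPM in Col-0 SAM. *AHK2*, which acts redundantly with *AHK3* in shoots, averaged 7.61 ± 0.972 TPM in *plt3 plt7* SAM and 8.69 ± 0.909 TPM in Col-0 SAM. *AHK3* lay above *AHK4* in 5 of 5 *plt3 plt7* SAM and 4 of 5 Col-0 SAM libraries, with overlapping ranges in both. The ranges of *AHK4* and *AHK2* overlapped in both SAM groups, and *AHK4* lay above *AHK2* in 3 of 5 libraries of each, so their order was not resolved. In IM *AHK4* was the leading receptor in all 10 libraries, although its range overlapped that of *AHK3* in each genotype.

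Between genotypes the receptors were close. Their log2 fold changes in *plt3 plt7* SAM against Col-0 SAM were −0.20 for *AHK2*, −0.15 for *AHK3* and −0.19 for *AHK4*, with 95% intervals of −0.39 to −0.01, −0.34 to 0.04 and −0.41 to 0.02. The interval of *AHK2* left out 0 (unadjusted p = 0.042), but its adjusted p was 0.684. In IM the estimates were −0.07, −0.09 and −0.13 in the same order, with lower bounds of −0.22, −0.24 and −0.27. All 6 estimates were below 0 and none was called, the smallest adjusted p being 0.578 (*AHK4* in IM, DESeq2). The size of the SAM estimates depended on the processing. Over 12 other settings, length corrections among them, they ran from −0.20 to −0.07 (*AHK2*), −0.18 to −0.02 (*AHK3*) and −0.20 to −0.08 (*AHK4*). Fragment length was 346 to 407 nt in *plt3 plt7* SAM and 413 to 432 nt in Col-0 SAM. Its part in these estimates was not tested and cannot be told apart from that of genotype. The comparison within harvest groups was mixed: *AHK4* in *plt3 plt7* was lower in 3 of 4 SAM harvest groups, with log2 differences between −0.52 and 0.07, and in 3 of 3 IM harvest groups, between −0.17 and −0.09. *AHK2* was lower in *plt3 plt7* in every SAM harvest group, between −0.32 and −0.02, but higher in IM harvest group 3 (0.10). *AHK3* was higher in SAM harvest group 3 (0.08) and IM harvest group 3 (0.0086), and lower in the others.

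Between tissues only *AHK4* among the receptors was called. Its level was 11.7, 15.3, 16.3, 15.6 and 14.4 TPM in the 5 *plt3 plt7* IM libraries, against 7.37, 7.38, 7.48, 10.6 and 8.60 TPM in *plt3 plt7* SAM. In Col-0 it was 15.01, 16.0, 17.2, 13.9 and 16.9 TPM in IM, against 6.60, 9.92, 9.39, 9.37 and 11.99 TPM in SAM. Every IM library lay above every SAM library of its genotype on this scale. The log2 fold change on counts was 0.46 ± 0.09 (SE) in *plt3 plt7* (adjusted p = 4.98e-07) and 0.41 ± 0.10 in Col-0 (adjusted p = 1.18e-04, DESeq2), although normalised counts overlapped between tissues in both genotypes. *AHK2* and *AHK3* stayed within the fold limit (log2 fold changes −0.09 and −0.16 in *plt3 plt7*, and −0.21 and −0.25 in Col-0). The direction of those 2 depended on the scale: by the ratio of mean TPM they were higher in IM, by 0.27 and 0.20 in *plt3 plt7* and 0.14 and 0.11 in Col-0 (log2), while the median of all genes was itself 0.37 and 0.33 higher on that scale, a shift of 0.35 and 0.31 from the count fit. Relative to that median, both receptors were lower and *AHK4* higher in IM on either scale.

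*AHK4* thus made up 40.5 ± 2.39% of receptor TPM in *plt3 plt7* IM, against 31.1 ± 2.57% in *plt3 plt7* SAM, and 41.2 ± 1.88% in Col-0 IM, against 31.1 ± 4.48% in Col-0 SAM (SD, n = 5). *AHK3* held 34.1 ± 2.07% in *plt3 plt7* IM, against 40.2 ± 1.59% in SAM, and 33.9 ± 2.11% in Col-0 IM, against 40.1 ± 3.46% in SAM. The share of each receptor differed between genotypes by less than its SD within a group, apart from that of *AHK2* in IM, which was 25.4 ± 1.27% in *plt3 plt7* and 24.9 ± 0.413% in Col-0. These shares are descriptions and were not tested.

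*AHK4* was the only receptor with several transcript models, 6 of 3637 to 4451 nt, and the division among them varied between libraries. Model AT2G01830.3 took 42.1, 39.5, 19.3, 0.484 and 0.00018% of *AHK4* TPM in *plt3 plt7* SAM replicates 1 to 5, against at most 3.89% in any Col-0 SAM library, 7.61% in any *plt3 plt7* IM library and 0.447% in any Col-0 IM library. Model AT2G01830.6, which is 17 bases shorter, took 0.0624, 5.96, 16.6, 35.4 and 31.6% in the same *plt3 plt7* SAM libraries, against 28.2 to 56.8% in Col-0 SAM. The 3 libraries high in AT2G01830.3 were thus low in AT2G01830.6, while replicates 4 and 5 were within the Col-0 SAM range for AT2G01830.6. The 3 came from harvest groups 1 and 2, and their total *AHK4* level was 7.37 to 7.48 TPM, the lowest of that group. *plt3 plt7* IM replicate 1 was also low in AT2G01830.6, at 11.0%, with the models AT2G01830.2 and AT2G01830.5 higher instead. Shares between nearly identical models are estimates of the quantifier, and their uncertainty was not measured here.

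**Figure D2:**
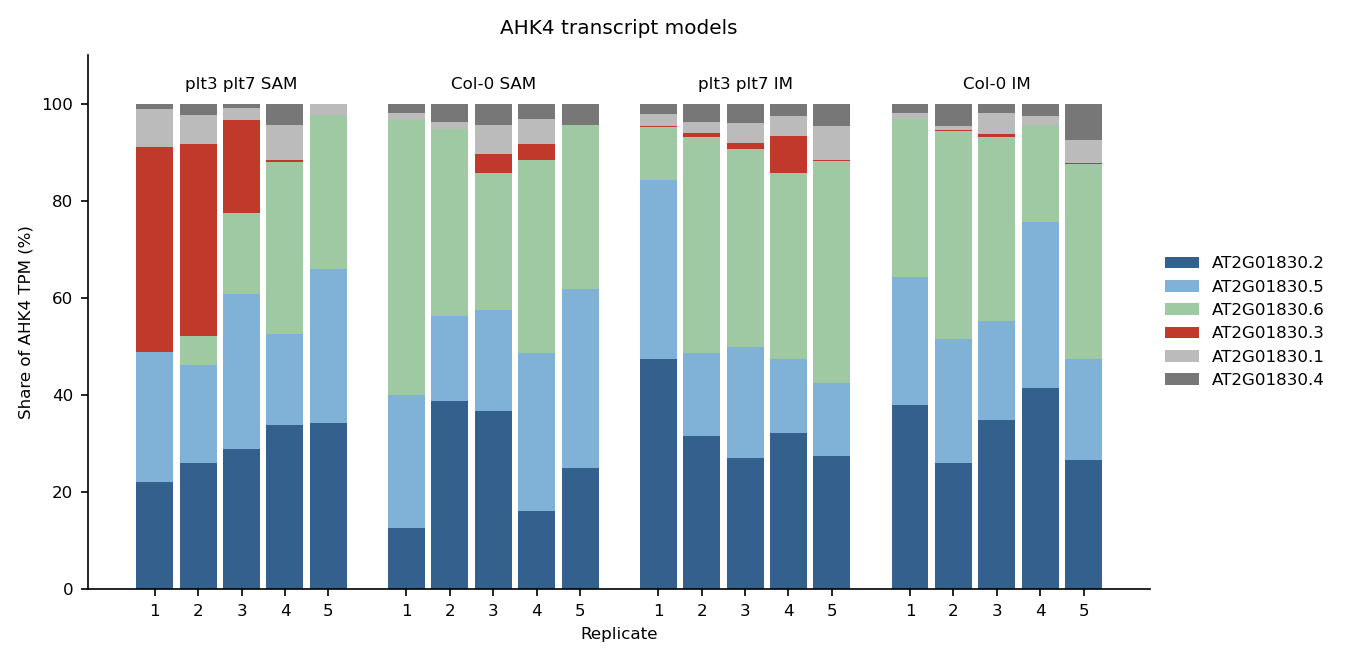
Share of each of the 6 *AHK4* transcript models in summed *AHK4* TPM (y axis, percent) for every library, 1 bar per replicate. AT2G01830.3 takes 42.1, 39.5 and 19.3% in *plt3 plt7* SAM replicates 1 to 3 and at most 7.61% in the other libraries.

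*AHP2* was the most abundant phosphotransfer transcript in every library. It averaged 70.1 ± 3.78 TPM in *plt3 plt7* SAM and 71.5 ± 9.67 TPM in Col-0 SAM, with 57.6 ± 8.91 TPM in *plt3 plt7* IM and 59.2 ± 7.57 TPM in Col-0 IM (SD, n = 5). *AHP3* came next at 31.6 ± 1.46 TPM in *plt3 plt7* SAM and 32.5 ± 3.62 TPM in Col-0 SAM, with 34.5 ± 2.44 TPM in *plt3 plt7* IM and 32.6 ± 3.53 TPM in Col-0 IM. The ranges of these 2 genes, whose products act redundantly as positive regulators with AHP1 and AHP5, did not overlap in any group. *AHP5* came after *AHP3* in both IM groups and in Col-0 SAM, with means of 13.5 to 17.2 TPM over the 4 groups. In *plt3 plt7* SAM, *AHP4* averaged 14.6 ± 3.44 TPM and *AHP5* 13.5 ± 1.05 TPM, with overlapping ranges and *AHP4* above *AHP5* in 3 of 5 libraries, whereas in Col-0 SAM *AHP4* was below *AHP5* in all 5.

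The *AHP* pool, the summed TPM of the 6 genes, was 134 ± 4.95 in *plt3 plt7* SAM and 133 ± 14.6 in Col-0 SAM, with 115 ± 11.3 in *plt3 plt7* IM and 117 ± 11.7 in Col-0 IM. *AHP2* held 52.5 ± 2.71% of it in *plt3 plt7* SAM and 53.9 ± 2.60% in Col-0 SAM, with 49.9 ± 3.61% in *plt3 plt7* IM and 50.3 ± 1.56% in Col-0 IM. *AHP4* held 10.9 ± 2.40% of the pool in *plt3 plt7* SAM and 7.03 ± 0.983% in Col-0 SAM, with ranges of 8.30 to 13.7% and 6.21 to 8.21%. These did not overlap, but by estimated counts the shares of 7.64 to 12.9% in *plt3 plt7* SAM and 5.87 to 7.96% in Col-0 SAM did. *AHP6* held 4.46 ± 0.961% in *plt3 plt7* IM and 6.67 ± 0.938% in Col-0 IM, with ranges of 3.38 to 5.86% and 5.91 to 8.22% that did not overlap on this scale or by estimated counts (3.33 to 5.42% and 5.76 to 7.41%). Set against the 5 genes that keep the histidine codon, there were 4.68 ± 1.06 *AHP6* transcripts per 100 in *plt3 plt7* IM and 7.15 ± 1.09 in Col-0 IM, and 0.892 ± 0.370 per 100 in *plt3 plt7* SAM and 1.30 ± 0.733 in Col-0 SAM. The summed *AHP* genes had 3.22 ± 0.571 transcripts per receptor transcript in *plt3 plt7* IM, against 5.08 ± 0.576 in *plt3 plt7* SAM, and 3.07 ± 0.453 in Col-0 IM, against 4.396 ± 0.369 in Col-0 SAM, with no overlap between tissues in either genotype. Shares of 1 pool are not independent of each other, and none was tested.

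**Figure D3:**
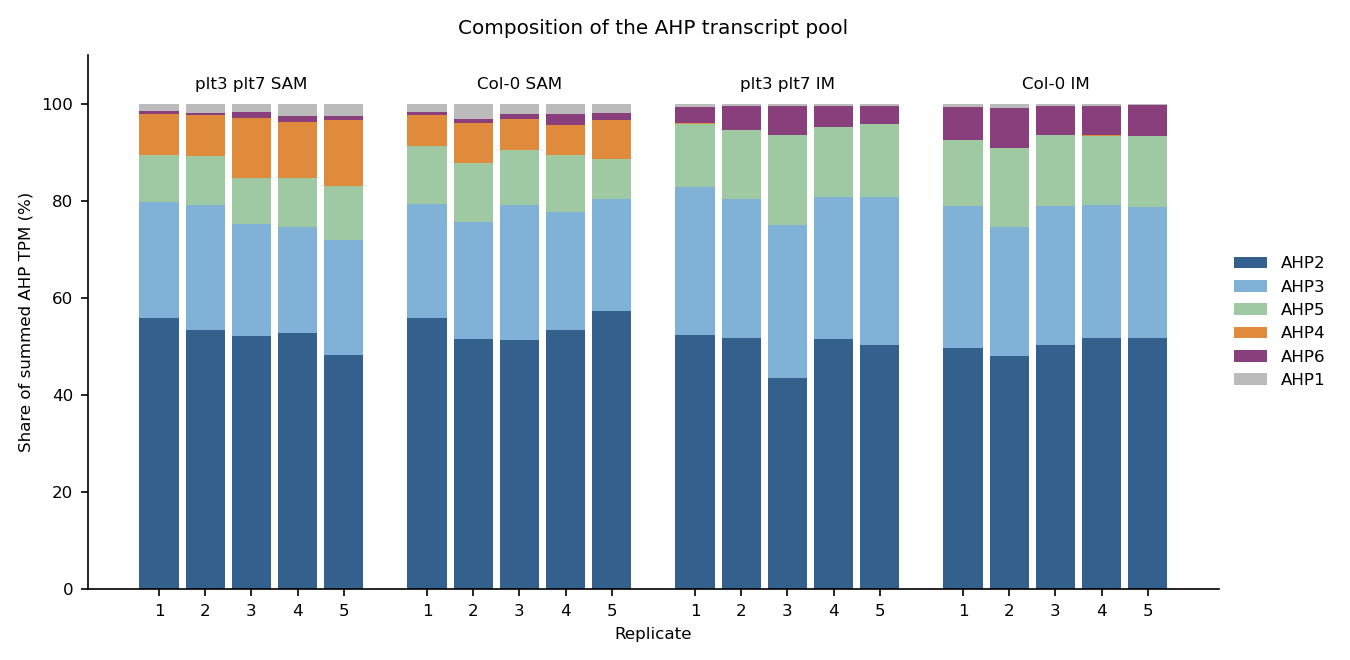
Composition of the *AHP* transcript pool in percent of summed TPM (y axis), 1 bar per library and replicates 1 to 5 within each group. *AHP2* holds 43.6 to 57.2% in all libraries, *AHP4* holds at least 6.21% in SAM and at most 0.206% in IM, and *AHP6* is thicker in IM, more so in Col-0 than in *plt3 plt7*.

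*AHP4*, which encodes the phosphotransfer protein whose part in cytokinin responses is the least clear, was the member called in SAM. Its normalised count was 172, 164, 221, 248 and 291 in *plt3 plt7* SAM replicates 1 to 5, against 122, 143, 118, 123 and 169 in Col-0 SAM. The groups overlapped through *plt3 plt7* replicate 2 and Col-0 replicate 5, which came from different harvest groups. By normalised counts every *plt3 plt7* library lay above every Col-0 library of its harvest group, with log2 differences of 0.38, 0.69, 1.01 and 0.78 for harvest groups 1 to 4 (1 or 2 libraries per genotype each). On the TPM scale this order did not hold in harvest group 1, where *plt3 plt7* replicate 1 was at 10.6 TPM and Col-0 replicate 2 at 11.0 TPM. The log2 fold change was 0.70 ± 0.16 (SE), a 1.62-fold increase in *plt3 plt7* (adjusted p = 0.0142, DESeq2). With edgeR's quasi-likelihood test the adjusted p was 0.380, and without any 1 of Col-0 SAM replicates 3, 4 and 5 or *plt3 plt7* SAM replicates 4 and 5 it lay between 0.141 and 0.540, with log2 fold changes of 0.61 to 0.70.

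The 2 libraries with the most *AHP4*, *plt3 plt7* SAM replicates 4 and 5, also had the shortest fragments in SAM, at 352 and 346 nt, and the 2 *AHP4* models are short, at 420 and 863 nt. With an offset for transcript length the log2 fold change was 0.66 (adjusted p = 0.0711), and with the trend over length removed it was 0.58 (adjusted p = 0.0819, DESeq2), so that the call was kept in both. *AHP2* and *AHP3*, whose main models have 878 and 841 nt, had log2 fold changes of 0.05 and 0.04 in SAM. Their direction turned below 0 with the length trend removed. Fragment length was 346 to 407 nt in all *plt3 plt7* SAM libraries and 413 to 432 nt in all Col-0 SAM libraries. Its part in the *AHP4* difference therefore cannot be told apart from that of genotype. Summed vascular markers were 122 to 176 TPM in *plt3 plt7* SAM and 113 to 162 TPM in Col-0 SAM, and summed leaf markers 8961 to 13360 TPM and 9098 to 16117 TPM in the same order, and their part in the *AHP4* difference was not tested.

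In IM *AHP4* was close to undetected. The 5 *plt3 plt7* IM libraries held 4, 3, 3, 0 and 0 estimated counts, against 171, 171, 247, 241 and 429 in *plt3 plt7* SAM. The Col-0 IM libraries held 0, 0, 0, 2 and 0, against 104, 133, 118, 110 and 148 in Col-0 SAM. The share of all counts was 182-fold higher in SAM than in IM in *plt3 plt7* (95% exact interval 98.9 to 381) and 458-fold higher in Col-0 (126 to 3794), intervals that cover counting error only. The genotype difference in *AHP4* could thus be examined in SAM but not in IM, where 10 counts in *plt3 plt7* and 2 in Col-0 were below the filter.

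**Figure D4:**
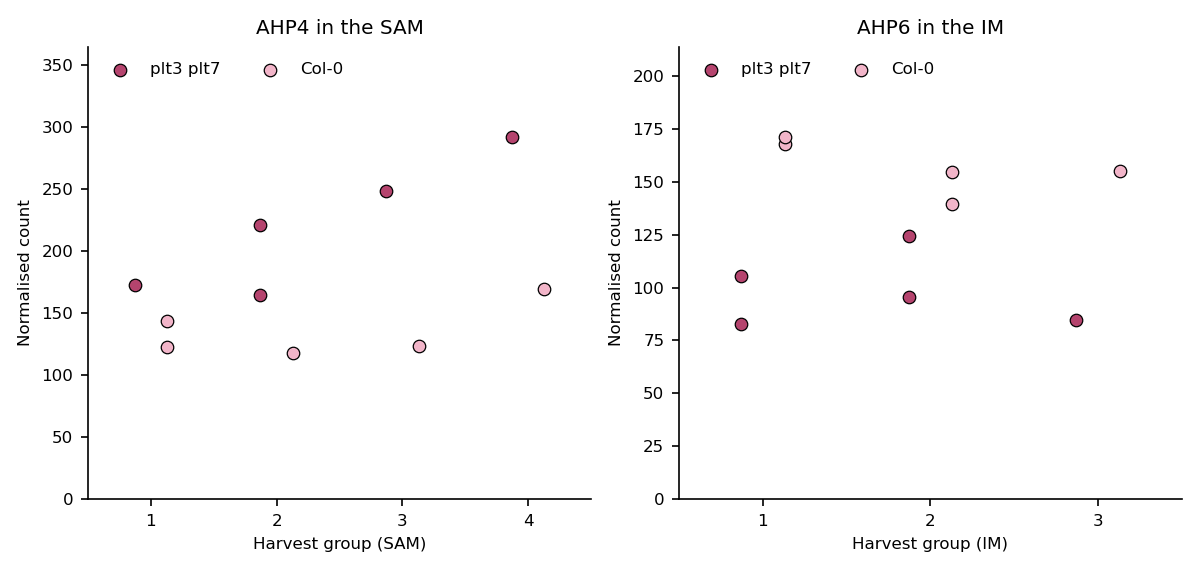
Normalised counts (y axis, linear from 0) of *AHP4* in SAM (left) and *AHP6* in IM (right) by harvest group (x axis), 1 point per library. In all 4 SAM harvest groups *plt3 plt7* lies above Col-0 for *AHP4*, and in all 3 IM harvest groups it lies below Col-0 for *AHP6*.

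*AHP6*, the pseudo-phosphotransfer inhibitor, was the member called in IM. Its normalised count was 82.8, 106, 124, 95.5 and 84.6 in *plt3 plt7* IM replicates 1 to 5, against 168, 171, 140, 155 and 155 in Col-0 IM. The highest *plt3 plt7* library was below the lowest Col-0 library, which was true, in either direction, for 1 of 8 members tested and for 2.5% of all genes. The log2 differences within IM harvest groups 1, 2 and 3 were −0.85, −0.43 and −0.87. In the fit, *AHP6* fell by 0.66 ± 0.18 (SE) on the log2 scale, to 0.631 of the Col-0 level (adjusted p = 0.0136, DESeq2). The adjusted p was 0.1003 with edgeR's quasi-likelihood test, and 0.1001 to 0.118 without any 1 of Col-0 IM replicates 2 and 5 or *plt3 plt7* IM replicates 1 and 5. The vascular marker list summed to 89.2 to 97.0 TPM in *plt3 plt7* IM and 85.4 to 108 TPM in Col-0 IM, with *VND6* and *VND7* averaging under 1 TPM in both. Of its 12 genes, 1 was called, *TMO5*, a basic helix-loop-helix factor of early vascular cells, which fell by 0.56 ± 0.09 on the log2 scale (adjusted p = 4.49e-08, DESeq2). Over all genes, 1.07% were called lower in IM. The median log2 fold change of the 12 genes was 0.10, above 0, so *TMO5* does not stand for the whole list. The floral list summed to 774 to 801 TPM in *plt3 plt7* IM and 809 to 855 TPM in Col-0 IM. Their part in the *AHP6* difference was not tested. In these bulk samples, fewer cells of a type and less RNA per cell cannot be told apart.

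In SAM *AHP6* was sparse, with 9 to 28 estimated counts in *plt3 plt7* and 10 to 43 in Col-0. Its SAM estimate of −0.54 ± 0.40 (adjusted p = 0.853) had a 95% interval of −1.32 to 0.25, wide enough to hold the IM estimate as well as no difference. Between tissues *AHP6* rose in both genotypes. It was at 3.88, 6.44, 5.79, 4.84 and 4.54 TPM in *plt3 plt7* IM, against 0.878, 0.528, 1.72, 1.69 and 1.13 TPM in *plt3 plt7* SAM. In Col-0 it was at 7.80, 8.29, 6.92, 8.06 and 7.67 TPM in IM, against 0.685, 1.20, 1.248, 3.27 and 2.32 TPM in SAM. No IM library overlapped a SAM library. The log2 fold change was 1.81 ± 0.27 in *plt3 plt7* (adjusted p = 6.33e-11) and 1.92 ± 0.29 in Col-0 (adjusted p = 1.50e-10, DESeq2).

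*AHP1* moved the opposite way between tissues. It was at 0.407 to 0.746 TPM in *plt3 plt7* IM, against 1.91 to 3.52 TPM in *plt3 plt7* SAM, and at 0.293 to 0.795 TPM in Col-0 IM, against 1.98 to 4.08 TPM in Col-0 SAM, without overlap. The log2 fold change was −2.67 ± 0.24 in *plt3 plt7* (adjusted p = 1.59e-28) and −2.60 ± 0.26 in Col-0 (adjusted p = 2.51e-22, DESeq2). *AHP2* fell more modestly, by 0.60 ± 0.09 on the log2 scale in *plt3 plt7* and 0.44 ± 0.07 in Col-0 (adjusted p = 2.10e-11 and 3.29e-09), and its normalised counts did not overlap between tissues, although TPM ranges did. *AHP3* and *AHP5* were not called: *AHP3* had log2 fold changes of −0.22 in *plt3 plt7* and −0.23 in Col-0, within the fold limit, and *AHP5* −0.01 and −0.06, and both were above 0 by the ratio of mean TPM (0.12 and 0.34 in *plt3 plt7*, 0.0017 and 0.25 in Col-0). Leaving out *AHP4*, normalised counts did not overlap between tissues for *AHP1*, *AHP2* and *AHP6*, 3 of 8 members, in each genotype, which was also true of 56.1% of all genes in *plt3 plt7* and 57.9% in Col-0. On the TPM scale the 3 of 8 members without overlap were *AHK4*, *AHP1* and *AHP6* in each genotype, beside 66.8% of genes in *plt3 plt7* and 66.2% in Col-0. Floral markers summed to 774 to 801 TPM in *plt3 plt7* IM, against 2.11 to 3.83 TPM in *plt3 plt7* SAM, and vascular markers to 89.2 to 97.0 TPM, against 122 to 176 TPM in *plt3 plt7* SAM. Leaf markers summed to 1907 to 2241 TPM in *plt3 plt7* IM, against 8961 to 13360 TPM in *plt3 plt7* SAM. In Col-0 IM against Col-0 SAM, floral markers summed to 809 to 855 against 2.59 to 5.87 TPM. Vascular markers there summed to 85.4 to 108 against 113 to 162 TPM, and leaf markers to 1870 to 2301 against 9098 to 16117 TPM. The part of these cell types in the tissue differences was not tested.

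**Figure D5:**
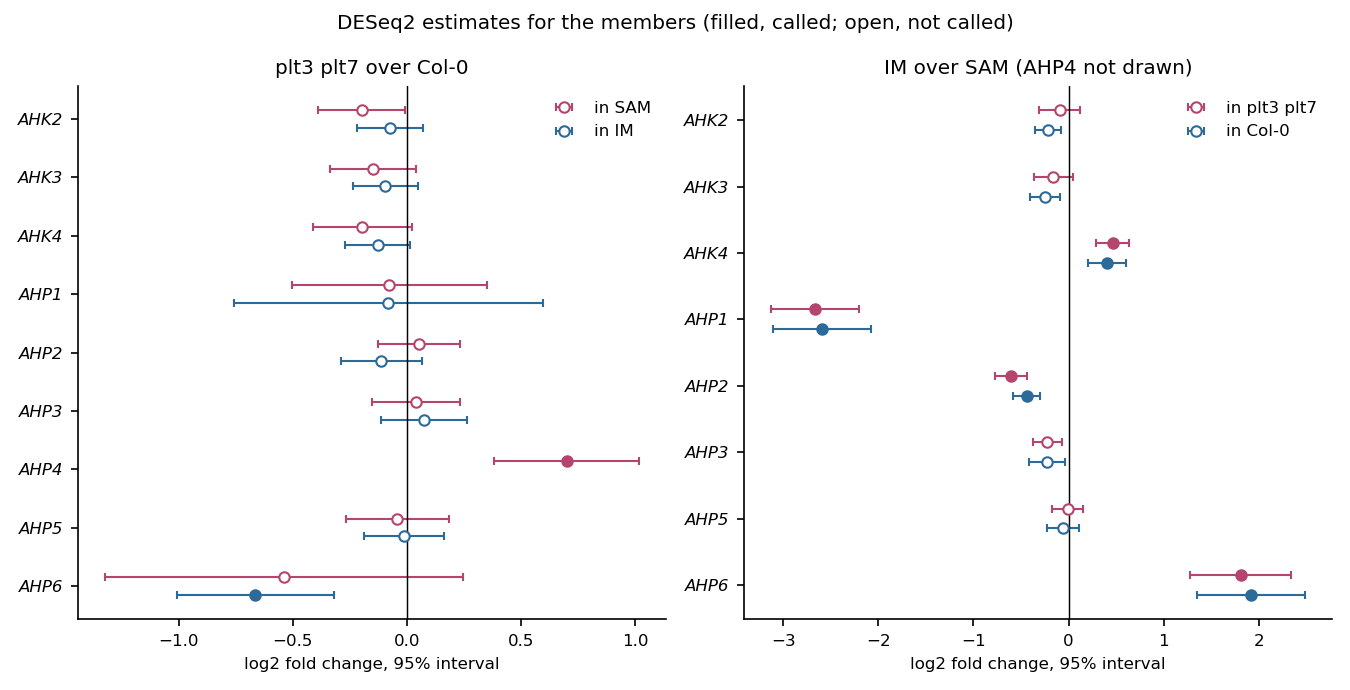
DESeq2 log2 fold changes with 95% intervals (x axes) for *plt3 plt7* over Col-0 in each tissue (left) and for IM over SAM in each genotype (right); filled points were called, open points were not. *AHP4* in SAM (0.70) and *AHP6* in IM (−0.66) are the filled points on the left, and *AHK4*, *AHP1*, *AHP2* and *AHP6* are filled in both genotypes on the right, where *AHP4* is not drawn because its IM counts are near 0.

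For *AHP1*, *AHP2*, *AHP3* and *AHP5* no genotype difference was called in either tissue. The estimates for *plt3 plt7* against Col-0 lay between −0.08 and 0.05 in SAM and between −0.11 and 0.07 in IM. The 95% intervals of *AHP2*, *AHP3* and *AHP5* in IM stayed within −0.29 and 0.26, inside the fold limit of 0.32, whereas that of *AHP1*, with 9 to 65 counts per IM library, ran from −0.76 to 0.60. None of the 9 members was called when the genotype effect was compared between tissues (DESeq2 interaction over all 20 libraries, where 0.354% of genes were called). At an unadjusted p under 0.05 there were 0 members by DESeq2 and 0 by edgeR, which also called 0. Of all 20348 genes tested, 1688 by DESeq2 and 1605 by edgeR were under that limit. *AHP4*, 1 of the 9, passed the filter of this fit through its SAM counts alone. Its 95% interval in the interaction ran from −0.63 to 3.12. With its IM counts near 0, the fit could not decide whether its genotype effect differed between tissues. The interaction estimate for *AHP6* was −0.10 with a 95% interval of −0.78 to 0.58, so that the IM reduction was not shown to differ from the SAM estimate. The 4 comparisons share libraries, since each group entered a genotype and a tissue comparison.

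Most *AHP* genes had 1 dominant transcript model. AT5G39340.4 held at least 94.4% of *AHP3* and AT1G03430.1 held 83.5 to 94.1% of *AHP5* in every library. AT3G16360.2 held 76.0 to 97.2% of *AHP4* in *plt3 plt7* SAM and 87.9 to 100% in Col-0 SAM. *AHP2* was split between AT3G29350.1, at 56.2 to 97.8%, and a 520 nt model with the remainder. *AHP6*, with 3 models, varied more, AT1G80100.1 holding 61.3 to 80.6% in *plt3 plt7* IM and 64.3 to 85.9% in Col-0 IM.

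Genes up- and downstream of the relay were counted next to the members. Of the 18 genes for cytokinin synthesis and breakdown, 13 were tested in IM and 2 fell in *plt3 plt7*, both *LONELY GUY* genes, which release active cytokinin from its nucleotides, beside 1.07% of all genes called lower in IM. *LOG5* averaged 2240 ± 166 normalised counts in *plt3 plt7* IM and 3073 ± 220 in Col-0 IM (log2 fold change −0.46 ± 0.06, adjusted p = 8.25e-13), and *LOG7* 73.8 ± 15.7 and 135 ± 20.7 in the same order (−0.85 ± 0.20, adjusted p = 0.00232), without overlap in either. edgeR called 2 genes of this list in IM as well. *LOG5* was also called in the DESeq2 interaction (−0.83 ± 0.20, adjusted p = 0.0175), where edgeR called none of the list. None of the 15 tested genes of this list was called in SAM by DESeq2 or edgeR, with 2 at an unadjusted p under 0.05 by each. None of 6 type-B and 8 type-A response regulators, 6 cytokinin response factors and 1 other histidine kinase tested in SAM was called by DESeq2 or edgeR, nor of 7, 8, 6 and 2 tested in IM. At an unadjusted p under 0.05 there were 0, 1, 0 and 0 of them in SAM and 2, 1, 1 and 0 in IM by DESeq2, and 0, 1, 0 and 1 in SAM and 2, 0, 1 and 0 in IM by edgeR. Over all genes, 1336 of 19185 in SAM and 1990 of 19432 in IM were under that limit by DESeq2, and 1510 and 2058 by edgeR. The 2 type-C response regulators were below the count filter.

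Between tissues more type-B response regulators rose than fell, and more type-A regulators fell than rose. Genes with a median under 10 counts in 1 tissue passed the filter through the other tissue and are left out of these counts. Of 6 remaining type-B genes, 3 rose and 1 fell in each genotype, with a median log2 fold change of 0.31 in *plt3 plt7* and 0.39 in Col-0, beside 0.02 for all genes tested in each. *ARR10*, one of the main activators of the cytokinin response, rose by 0.67 ± 0.06 in *plt3 plt7* and by 0.74 ± 0.08 in Col-0. *ARR2* changed by 0.67 ± 0.10 and 0.74 ± 0.12 in the same order. *ARR18*, left out here, averaged 59.0 ± 13.1 normalised counts in *plt3 plt7* IM, against 4.87 ± 5.24 in *plt3 plt7* SAM, and 41.4 ± 10.01 in Col-0 IM, against 3.28 ± 1.85 in Col-0 SAM. Of 8 type-A genes, 1 rose and 5 fell in each genotype, with medians of −0.52 in *plt3 plt7* and −0.49 in Col-0. *ARR9* changed by −2.54 ± 0.11 in *plt3 plt7* and −2.54 ± 0.12 in Col-0, and *ARR5* by −1.83 ± 0.16 and −1.69 ± 0.18, while *ARR7*, a target of WUS repression, changed by 0.75 ± 0.12 and 0.81 ± 0.14. Over all genes, 26.4% rose and 31.3% fell in *plt3 plt7*, and 26.7% rose and 30.5% fell in Col-0. With the length trend removed the split of all called genes was 7071 higher and 5332 lower in *plt3 plt7*, against 5206 and 6167 without that correction. Cytokinin response factors were divided, with 2 of 6 higher and 2 lower in each genotype: *CRF4* changed by −1.80 ± 0.13 in *plt3 plt7* and −1.65 ± 0.11 in Col-0, *CRF3* by −1.11 ± 0.11 and −1.49 ± 0.12, and *CRF1* by 0.65 ± 0.12 and 0.44 ± 0.10.

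Among the synthesis and breakdown genes left by the same limit, 5 rose and 3 fell of 12 in *plt3 plt7*, and 5 rose and 3 fell of 11 in Col-0, with 4 set aside in each genotype. The shares over all genes tested were 26.4% higher and 31.3% lower in *plt3 plt7*, and 26.7% higher and 30.5% lower in Col-0. *LOG5* averaged 1915 ± 144 normalised counts in *plt3 plt7* IM, against 69.6 ± 21.9 in *plt3 plt7* SAM, and 2305 ± 174 in Col-0 IM, against 44.5 ± 18.0 in Col-0 SAM. *LOG1* and *LOG8* changed the other way, by −2.80 ± 0.14 and −2.01 ± 0.12 in *plt3 plt7* and by −2.63 ± 0.17 and −1.85 ± 0.14 in Col-0. Of the histidine kinases that do not bind cytokinin, *AHK1*, known for its part in osmotic responses, changed by −1.46 ± 0.10 in *plt3 plt7* and −1.74 ± 0.09 in Col-0, whereas *AHK5*, under the limit in SAM, averaged 34.6 ± 4.00 normalised counts in *plt3 plt7* IM, against 11.2 ± 7.90 in *plt3 plt7* SAM, and 26.4 ± 7.19 in Col-0 IM, against 6.17 ± 3.79 in Col-0 SAM.

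The genes whose pattern over the 10 SAM libraries was most like that of *AHP4*, by Pearson correlation of log2 normalised counts over 19184 other genes, were *Prx37* (AT4G08770, r = 0.97), AT5G38320 (r = 0.97) and AT3G53235 (r = 0.96). *Prx37*, a class III peroxidase gene, was itself called higher in *plt3 plt7* SAM (log2 fold change 1.11, adjusted p = 7.72e-04), and the other 2 were not called (0.51 and 0.53). Over the 10 IM libraries the genes most like *AHP6* were AT5G25490 (r = 0.95), *HDA18* (r = 0.94), a histone deacetylase gene, and AT1G04660 (r = 0.93), all 3 called lower in *plt3 plt7* IM, by 0.44, 0.36 and 0.83 on the log2 scale. These correlations span both genotypes and share libraries and scaling, and the genes were picked as the highest of many, so they are given as a description.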

How the data were processed

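The authors trimmed reads with fastp 0.23.4 and quantified them with kallisto 0.46.1 against TAIR10.1 cDNA; the library kit was strand-specific, and no strand option is given in the sources used here. The authors deposited, per transcript, estimated counts and TPM as kallisto gives them, with length and effective length. Here both were summed per locus (the identifier before the last dot), and counts were rounded. All 22 member transcripts matched the TAIR10.1 annotation by identifier and length. Loci reaching 10 counts in 5 or more libraries were tested in DESeq2 1.42.0 (R 4.3.3, Wald test, Benjamini-Hochberg adjustment), within tissue with harvest group as covariate (4 groups in SAM, 3 in IM, from the labels, whereas the study's methods speak of a separate day for each of 5 replicates), within genotype without it, and as an interaction over 20 libraries. edgeR 4.0.16, other scalings, filters, length corrections and leaving out each library were alternatives. Normalised counts come from the within-tissue fits, or for tissue comparisons from the within-genotype fits. Labels do not say that libraries of a group are independent plantings, so p-values measure the spread between these libraries. Scripts were tested on simulated counts. The named genes were all 9 members, listed pathway genes called between genotypes, up to 3 genes per list with the smallest adjusted p between tissues, the 3 genes most like *AHP4* and *AHP6*, and *PLT3* and *PLT7*. Marker genes were named outside this rule, only to describe the samples, and they and the limit of a median of 10 counts in 1 tissue for pathway lists were chosen after values were seen. The members and lists were chosen with earlier results of these data known. Root markers summed to 28.0 to 46.4 TPM and *RCH1*, *COBL9* and *EXP7* were under 1 TPM in all groups; meristem markers summed to 42.0 to 68.6 TPM in SAM and 90.0 to 115 TPM in IM.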

Additional observations from a re-analysis of the deposited data

Results flagged for a closer look

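In 56 groups of 5 libraries examined, 1 library stood apart from the others 4 times, where chance flags about 1 group in 20. *AHP5* had 421 normalised counts in *plt3 plt7* SAM replicate 5, against 377 to 384 in the other 4. The share of *AHP2* in the *AHP* pool was 43.6% in *plt3 plt7* IM replicate 3, the deepest library and the one with the shortest fragments, against 50.3 to 52.3% in the others. *AHP3* held 27.8% of the pool in Col-0 SAM replicate 3, against 23.2 to 24.3%, and *AHP5* held 8.23% in Col-0 SAM replicate 5, against 11.2 to 12.1%.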

How the results depend on the processing

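With edgeR's quasi-likelihood test 0 members were called between genotypes in SAM and 0 in IM. At an unadjusted p under 0.05 there were 2 and 1, beside 1510 of 19185 and 2058 of 19432 genes. In all, edgeR called 5 and 146 genes in place of 87 and 297. For the interaction edgeR called 11 genes in place of 72. With the offset for transcript length 51 genes were called in SAM, with the length trend removed 55, and with no harvest group 134. With no minimum fold change 6 members were called between tissues in *plt3 plt7* (*AHP3* being added) and 8 in Col-0 (*AHK2*, *AHK3* and *AHP3* being added), which is 5 and 7 of 8 without *AHP4*. The share of all genes called at that setting was not counted. At an unadjusted p under 0.05 (DESeq2) there were likewise 6 and 8 of 9 members. Beside them stood 14179 of 19689 genes in *plt3 plt7* and 14333 of 19627 in Col-0, so most genes passed that limit. Removing the length trend also moved the split of all genes between tissues, to 7071 higher and 5332 lower in *plt3 plt7* and 6614 and 5317 in Col-0, and the 4 members other than *AHP4* were still called. Deviations of same-numbered libraries correlated at −0.10 to 0.24 in SAM and −0.01 to 0.54 in IM, above 0.1 in 3 and 4 of 5 pairs. Since this did not hold in every pair, the numbers were not taken to pair the samples, although same-numbered IM libraries share a harvest group, which is a covariate between genotypes. With the replicate block 1 member was called in each tissue, as without it, while the genes called in SAM were 149.

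Leaving out 1 library at a time, the members called were 0 to 1 in SAM and 0 to 1 in IM. Directions turned only for estimates that were not called. With the length trend removed these were, between genotypes, *AHP2* (−0.069) and *AHP3* (−0.070) in SAM and *AHP5* (0.023) in IM; between tissues, *AHP5* (0.19 in *plt3 plt7*, 0.056 in Col-0); and in the interaction *AHK2* (−0.0060), *AHK3* (−0.080), *AHK4* (−0.046), *AHP1* (0.044) and *AHP6* (0.046). *AHP3* in SAM also turned with the length offset (−0.031) and with length offset and replicate block together (−0.0039). By the ratio of mean TPM, a comparison chosen after seeing the data, *AHP2* (−0.029) and *AHP3* (−0.042) turned in SAM, and between tissues *AHP5* (0.34 in *plt3 plt7*, 0.25 in Col-0), *AHK3* (0.20, 0.11), *AHK2* (0.27, 0.14) and *AHP3* (0.12, 0.0017), where all genes shifted by 0.35 and 0.31. Without 1 library, ranges crossing 0 were, in SAM, −0.19 to 0.096 (*AHP1*), −0.029 to 0.089 (*AHP2*), −0.00996 to 0.057 (*AHP3*) and −0.13 to 0.017 (*AHP5*); in IM, −0.19 to 0.040 (*AHP1*), −0.0049 to 0.11 (*AHP3*) and −0.070 to 0.026 (*AHP5*); between tissues in *plt3 plt7*, −0.039 to 0.029 (*AHP5*); and in the interaction, −0.045 to 0.11 (*AHK3*), −0.021 to 0.13 (*AHK4*), −0.18 to 0.11 (*AHP1*), −0.047 to 0.078 (*AHP3*), −0.034 to 0.12 (*AHP5*) and −0.23 to 0.10 (*AHP6*). *AHP4* drops below the filter between tissues when a SAM library is left out, so 4 of 8 others remain.

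By estimated counts the *AHP2* share was 43.9% in *plt3 plt7* SAM, 44.5% in Col-0 SAM, 41.1% in *plt3 plt7* IM and 42.5% in Col-0 IM. With *AHP6* left out of the pool, the *AHP2* share in Col-0 IM was 45.4% by estimated counts and 53.9% by TPM. The *AHK4* share by estimated counts was 27.5% in *plt3 plt7* SAM, 36.4% in *plt3 plt7* IM and 37.2% in Col-0 IM. The causes of these differences were not tested.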
